A study of Mus musculus with 24 samples.

Results

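This comparison set the brains of 4 mice that had carried a CT2A glioma and received chemoradiation (CT2A + RT-TMZ + Veh) against the brains of 4 mice with neither tumor nor treatment (Control + Veh). The samples of each group were taken by their titles and make up 8 of the 24 samples of the series, which fall into 7 groups. All mice were male C57BL/6J aged 27 weeks when the brains were taken. CT2A + RT-TMZ + Veh mice were injected in the brain with CT2a-Luc, a luciferase-carrying line of the murine glioma CT2A, which grows in this strain without rejection. They then received cranial irradiation in 3 fractions of 9 Gy, as the labels give the dose, together with the alkylating drug temozolomide at 25 mg/kg during and 66.7 mg/kg after the irradiation. Control + Veh mice received no cells, no radiation and no temozolomide. Both groups, and the 4 RT-TMZ + Veh mice used as a reference with the same chemoradiation but no tumor cells, were given buffered saline by retro-orbital injection in place of extracellular vesicles. The glioma was from 1 cell line, and a tumor group without chemoradiation was not analysed here, so the contrast with Control + Veh measured tumor and treatment together. The labels call the tissue brain, while the study's methods describe dissection of prefrontal cortex and hippocampus and a legend places the expression data in the hippocampus, so the region is not settled.

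Cranial irradiation with temozolomide is the standard course for glioma, and it damages dividing cells and DNA in tumor and normal brain alike. Brain vessels are lined by endothelial cells whose tight junctions, transporters and growth factor receptors form the blood-brain barrier. Microglia, the resident phagocytes, keep a homeostatic program that depends on the receptor Csf1r, and they change that program after injury, taking up complement, lipid-handling and Fc receptor genes. Neurons switch on immediate early genes such as Fos and Arc within minutes of firing, so that these transcripts follow recent activity.

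Expression was measured with the NanoString nCounter mouse neuroinflammation panel, in which color-coded probes are counted without amplification, and the deposited values are log2 normalized counts of 757 probes, of which 703 have a gene symbol here. Levels below are log2 normalized counts, differences are log2 differences between group means, and n = 4 mice per group throughout. Gfap, Cd68 and Aif1 were not analysed here. Steps between low values give the factor by which each sample had been scaled, and this factor was 0.838 to 0.955 in Control + Veh, 0.855 to 0.968 in RT-TMZ + Veh and 1.32 to 1.42 in the CT2A + RT-TMZ + Veh samples. The recorded counts that these factors imply totalled 1287047 to 1433284 in Control + Veh and 861926 to 936230 in CT2A + RT-TMZ + Veh, so the tumor-bearing samples held fewer counts and were scaled up more than all controls. Replicates correlated over all genes at r = 0.990 to 0.996 in Control + Veh and 0.965 to 0.990 in CT2A + RT-TMZ + Veh. The part of the scaling in the results below was not tested, and the main groups of genes are therefore also given with every sample centred on its own median and with the scaling factor removed, a change that lowers the log2 difference of every gene by 0.62. The neuronal gene Syp (14.33 ± 0.05, SD) and the astrocyte gene Slc1a3 (13.84 ± 0.05) were abundant in Control + Veh, so neuronal and astrocyte transcripts were present under the brain label.

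CT2A + RT-TMZ + Veh brains differed from Control + Veh brains in 160 of 757 genes at an adjusted p under 0.05 (limma, Benjamini-Hochberg over all genes), with 59 higher (7.79% of all genes) and 101 lower (13.3%). A further count that uses no model found 92 genes (12.2%) with all tumor-bearing mice above all controls and 124 genes (16.4%) with all below. Of the 160, 16 differed by more than 1 on the log2 scale. Among genes with a symbol that passed, the largest rises were those of Slamf9, Mmp12, Msr1, Trpa1 and Ly9, and the largest falls those of Flt1, Tie1, Fos, Arc and Tnfsf10. The balance of rises and falls depended on the scaling: 36.9% of called genes were higher as deposited, against 72.8% (107 higher, 40 lower) with samples centred on their medians, 53.9% (69 higher, 59 lower) after quantile normalization and 0.552% (3 higher, 540 lower) without the scaling factor. The median level of all genes was 8.29 ± 0.05 in Control + Veh and 8.07 ± 0.19 in CT2A + RT-TMZ + Veh, a shift of -0.215 (exact permutation test, two-sided, p = 0.114, where 0.0286 is the smallest p that 4 against 4 mice allow).

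**Figure D1:**
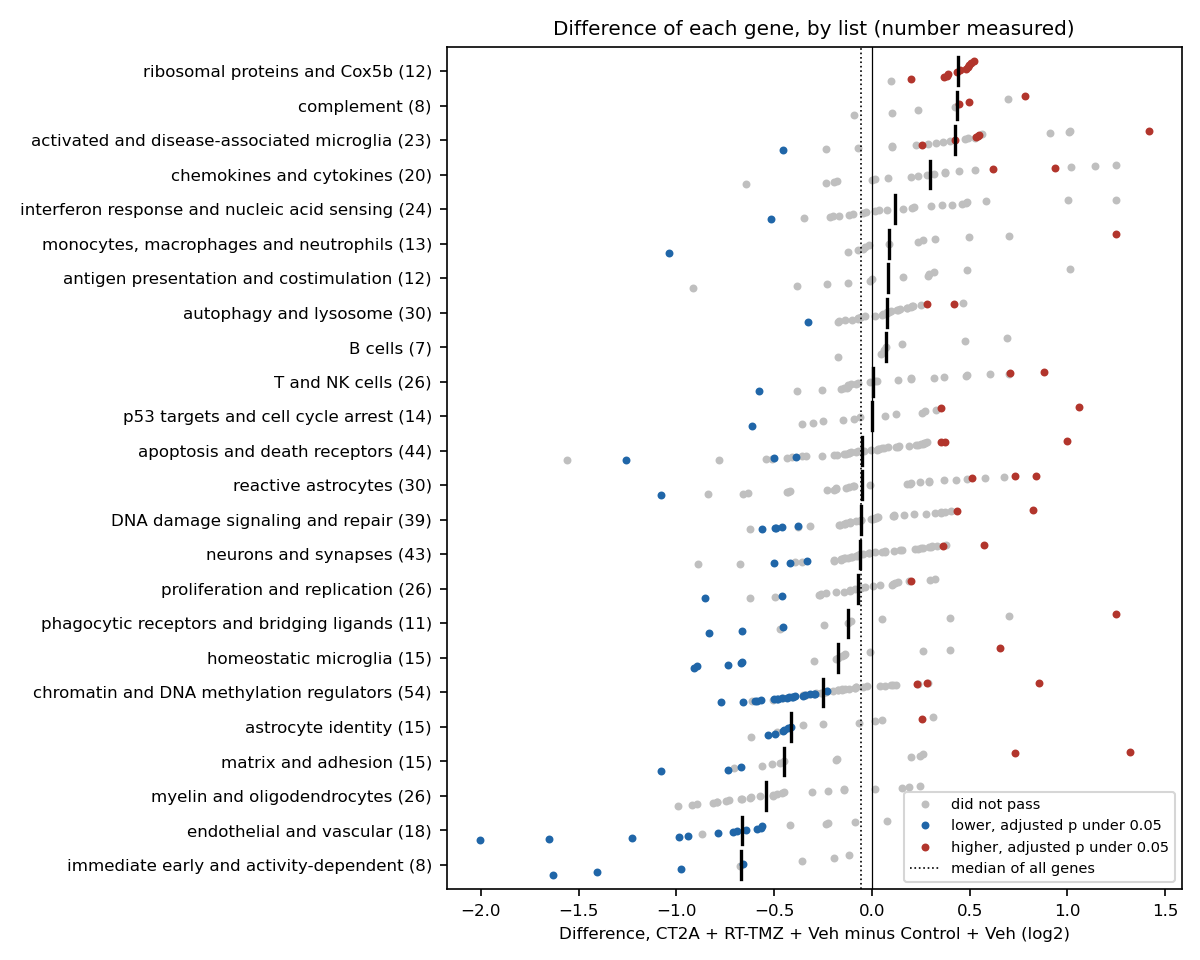
Difference of each gene between CT2A + RT-TMZ + Veh and Control + Veh (log2, horizontal axis) for 24 gene lists with the number measured, where points are genes, colors mark the limma call and black bars are list medians. The endothelial and immediate early lists had the lowest medians (both -0.67) and the ribosomal list the highest (0.44, which turns to -0.18 without the scaling factor).

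Vessel genes fell, and Flt1 and Tie1 had the largest falls of all genes with a symbol that passed. Of 18 endothelial and vascular genes measured, 12 were lower and none was higher, against 13.3% of all genes lower, and the list median was -0.67 beside -0.06 for all genes. The fall kept its direction after centring on medians, with 9 genes lower and a median of -0.45 (40 of all 757 genes lower). Without the scaling factor 17 were lower, as were 540 of all 757 genes. That setting lowers every difference by 0.62, so it could not have reversed the fall. In bulk tissue, fewer endothelial cells and less RNA per cell cannot be told apart.

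Flt1, the decoy and signaling receptor for vascular endothelial growth factor A, was at 8.67, 8.73, 8.71 and 8.93 in the 4 Control + Veh mice and at 6.19, 6.61, 6.44 and 7.78 in the 4 CT2A + RT-TMZ + Veh mice. All tumor-bearing mice lay below all controls, and replicate 4 lay nearest to them. The difference was -2.00 ± 0.31 (SE), a 4.01-fold lower level (adjusted p = 0.00702). Tie1, an endothelial receptor tyrosine kinase of the angiopoietin system, was at 8.10, 7.97, 7.71 and 8.07 in controls and at 6.08, 6.31, 6.01 and 6.85 in tumor-bearing mice. These groups were again separate, and the level was 3.14-fold lower (adjusted p = 0.00355). Pecam1, the adhesion molecule of endothelial junctions, was at 9.14, 9.19, 8.98 and 9.17 in controls and at 7.23, 8.0, 7.89 and 8.45 in tumor-bearing mice. Its fall of 1.23 on the log2 scale (SE 0.22, adjusted p = 0.0115) again left replicate 4 closest to the controls.

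Barrier genes did not move alike. Slc2a1, the glucose transporter of the barrier, was at 8.31 to 8.52 in controls and 7.14 to 7.86 in tumor-bearing mice (difference -0.99 ± 0.16, adjusted p = 0.00782). The junction genes Lsr (-0.94 ± 0.23, adjusted p = 0.0228), Esam (-0.79 ± 0.12, adjusted p = 0.00577) and Jam2 (-0.69 ± 0.10, adjusted p = 0.0053) fell, each with separate groups. Cldn5, the main claudin of brain endothelium, was at 9.97 ± 0.10 in controls and 9.88 ± 0.13 in tumor-bearing mice with overlapping groups, and its difference of -0.09 ± 0.09 did not pass the test (adjusted p = 0.527) and turned to 0.13 after centring on medians. The level of Cldn5 in tumor-bearing mice thus overlapped the controls while those of Flt1, Tie1, Pecam1, Slc2a1, Lsr, Esam and Jam2 did not. It was higher in RT-TMZ + Veh, at 10.21 to 10.64. The tumor-bearing mice, at 9.73 to 10, thus all lay below that group for Cldn5.

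**Figure D2:**
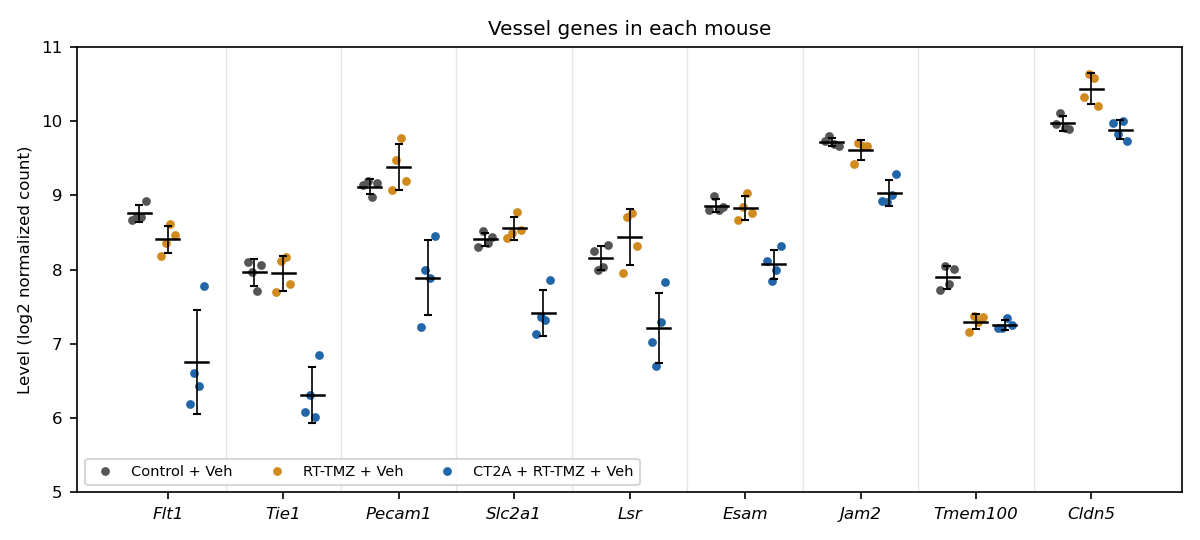
Level of 9 vessel genes in each mouse of the control, chemoradiation and tumor groups (log2 normalized counts, vertical axis), where points are mice, bars the mean and whiskers the SD of n = 4. Flt1 lay between 6.19 and 7.78 in the tumor-bearing mice, below all controls (8.67 to 8.93), whereas Cldn5 overlapped them.

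Chemoradiation without tumor did not give the same vessel values. Against the same controls, RT-TMZ + Veh showed 1 higher and 2 lower genes of the 18, with a median of 0.13, where 12.2% of all genes were higher and 5.68% lower. The Tie1 difference was -0.01 there, and that of Pecam1 was 0.26. Tested directly, CT2A + RT-TMZ + Veh was below RT-TMZ + Veh in 10 of the 18 genes and above it in none. Over all genes 8.72% were lower and 1.85% higher. The differences were -1.65 for Flt1 (adjusted p = 0.0325), -1.64 for Tie1 (adjusted p = 0.0223) and -1.49 for Pecam1 (adjusted p = 0.0323). These values hold for the deposited scaling. Centring on medians kept 17 of the 66 genes lower over the panel, and the vessel genes among them were not counted. Tmem100, a membrane protein downstream of BMP signaling in endothelium, was an exception, as it was lower than control by 0.64 on the log2 scale with the tumor and by 0.60 without it, and the direct difference was -0.04 (adjusted p = 0.812). Calls of this direct comparison depended on single mice: by limma no gene passed without RT-TMZ + Veh replicate 2, 3 or 4 or without CT2A + RT-TMZ + Veh replicate 3 (161 to 183 genes at an unadjusted p under 0.05), 10 passed without CT2A + RT-TMZ + Veh replicate 1 and 167 without its replicate 4, against 80 with all mice.

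With 1 mouse left out at a time, 8 to 14 of the 18 vessel genes were lower than in Control + Veh, with 8 when a Control + Veh replicate 1, 2 or 4 or CT2A + RT-TMZ + Veh replicate 3 was left out. The mean level of the 18 genes was 8.14 to 8.31 in Control + Veh, 7.27 to 7.86 in CT2A + RT-TMZ + Veh and 8.07 to 8.57 in RT-TMZ + Veh. In tumor-injected mice that had received extracellular vesicles after the same chemoradiation it was 8.15 to 8.30 with vesicles of UCI-191 cells and 8.21 to 8.51 with those of Shef6 cells (3 mice each), a range that overlaps that of the controls. Scaling factors in those EV groups, 0.998 to 1.18, lay between those of Control + Veh and of CT2A + RT-TMZ + Veh. The part that scaling has in this difference between tumor-bearing groups was not tested. Ttr, the choroid plexus transport protein, also varied among these groups. It was at 6.67, 14.40, 14.43 and 12.84 in RT-TMZ + Veh and at 7.49, 5.31, 7.23 and 13.94 in CT2A + RT-TMZ + Veh, and reached 11.87 to 14.05 with UCI-191 and 9.73 to 14.86 with Shef6 vesicles in tumor-injected mice. The Ttr difference between CT2A + RT-TMZ + Veh and RT-TMZ + Veh was -3.59 (adjusted p = 0.297). Its part in the vessel values was not tested. By the methods' t-test against Control + Veh with the same adjustment, 8 genes of the panel passed (222 at an unadjusted p under 0.05), none of them in the vessel, ribosomal, chromatin or astrocyte identity lists.

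**Figure D3:**
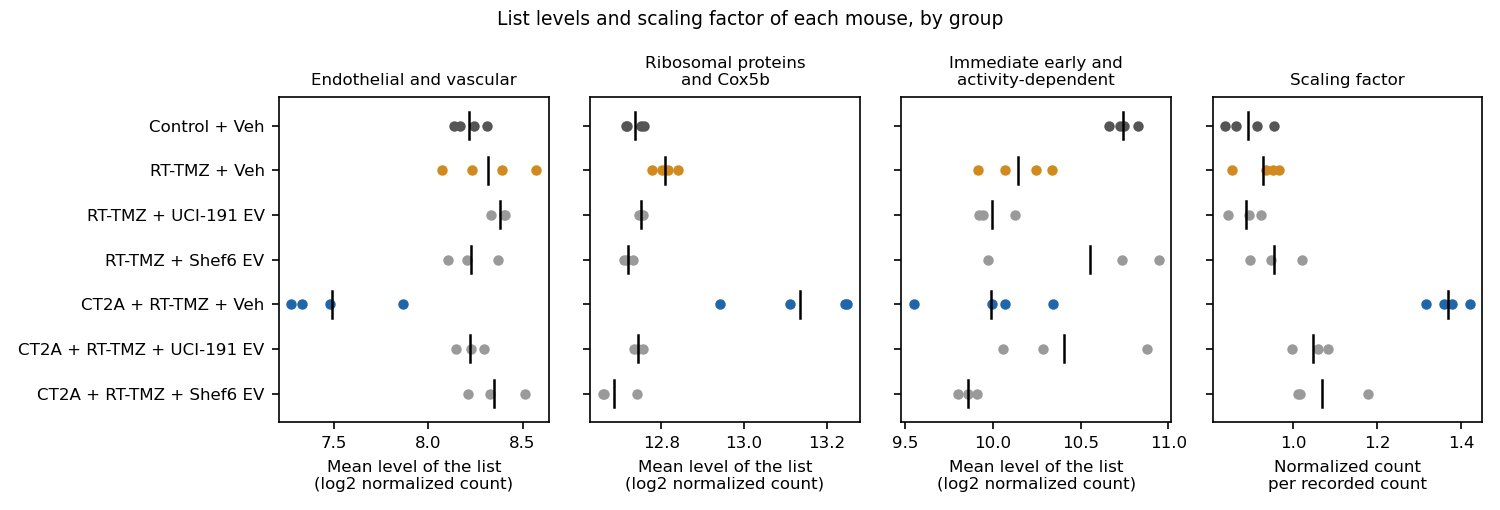
Mean level of 3 gene lists (log2 normalized counts) and scaling factor (normalized counts per recorded count) of each mouse in the 7 groups, where points are mice, black bars group means, and gray points the EV-treated groups. CT2A + RT-TMZ + Veh stood apart from the other 6 groups in the vessel list (7.27 to 7.86), the ribosomal list (12.94 to 13.25, above Control + Veh only with the deposited scaling or median centring or quantile normalization) and the scaling factor (1.32 to 1.42), but not in the immediate early list.

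Immediate early genes fell. Of 8 activity-dependent genes, 4 were lower and none was higher, against 13.3% of all genes lower and 7.79% higher. All 8 differences were negative, with a median of -0.67 beside -0.06 for all genes. After centring on medians these 4 genes were again lower (median -0.45, 6 of 8 differences negative), with 40 of all 757 genes lower. Without the scaling factor, which lowers every difference by 0.62, 7 were lower, as were 540 of all 757 genes. Leaving out 1 mouse at a time gave 2 to 5 lower genes, with 2 without Control + Veh replicate 1.

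Fos, a subunit of the transcription factor AP-1, was at 10.25, 9.89, 10.35 and 10.44 in Control + Veh and at 8.19, 8.66, 8.34 and 9.21 in CT2A + RT-TMZ + Veh, a difference of -1.63 ± 0.22 (adjusted p = 0.00506). All tumor-bearing mice lay below all controls. Arc, a capsid-like protein of the synapse that drives receptor endocytosis, was at 12.02, 12.03, 12.25 and 11.64 in controls and at 10.64, 9.51, 10.87 and 11.30 in tumor-bearing mice (difference -1.41 ± 0.34, adjusted p = 0.0231). Tumor-bearing replicate 2 held the lowest Arc level and replicate 4 the highest. The zinc finger factor Egr1 (-0.98 ± 0.11, adjusted p = 0.00355) and the cyclic AMP response factor Crem (-0.66 ± 0.14, adjusted p = 0.0162) also fell with separate groups. The neurotrophin Bdnf was at 9.52 to 9.90 in controls and 8.41 to 9.40 in tumor-bearing mice, also separate, but did not pass the test (adjusted p = 0.0533), and the AP-1 partner Jun overlapped (-0.36 ± 0.23, adjusted p = 0.297).

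For Fos, Arc and Egr1, chemoradiation alone gave values of like size. RT-TMZ + Veh differed from the same controls by -1.93 for Fos, -1.37 for Arc and -0.79 for Egr1. In RT-TMZ + Veh 5 of the 8 genes were lower (5.68% of all genes). The list median was -0.30 there, against -0.67 with the tumor. CT2A + RT-TMZ + Veh differed from RT-TMZ + Veh by 0.30 for Fos (adjusted p = 0.573) and -0.04 for Arc (adjusted p = 0.964). By limma no gene of the list passed in that direct test, where 8.72% of all genes were lower and 1.85% higher. At these shares a list of 8 genes may well hold no call, so the count cannot show likeness. An unadjusted p under 0.05 was found for 1 of the 8 and for 236 of all 757 genes. A p above the threshold does not show that the levels were equal.

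The Fos promoter is shown because Fos had the largest fall of the list and its upstream sequence is the textbook cyclic AMP response site of activity-driven transcription. In the RefSeq window of 250 bases before to 50 bases after the start (GRCm38.p6), the letters TGACG, searched on both strands, occurred at positions -129 to -125 and -66 to -62 relative to the transcription start of Fos, while 20.8% of 32851 mouse windows of the same length held them at least once. The full palindrome TGACGTCA, which contains TGACG, stood in 1.79% of windows and the CArG box of serum response factor in 1.63%, and neither was in the Fos window. Sequence more than 250 bases before the start was not searched, so a site there would not have been seen. The 100 bases before the start, chr12:85473790-85473889 on the plus strand, read as follows, with TGACG in capitals.
Fos: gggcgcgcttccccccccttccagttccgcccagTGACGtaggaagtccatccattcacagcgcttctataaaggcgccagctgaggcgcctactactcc
Arc had no entry in the table of windows.

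**Figure D4:**
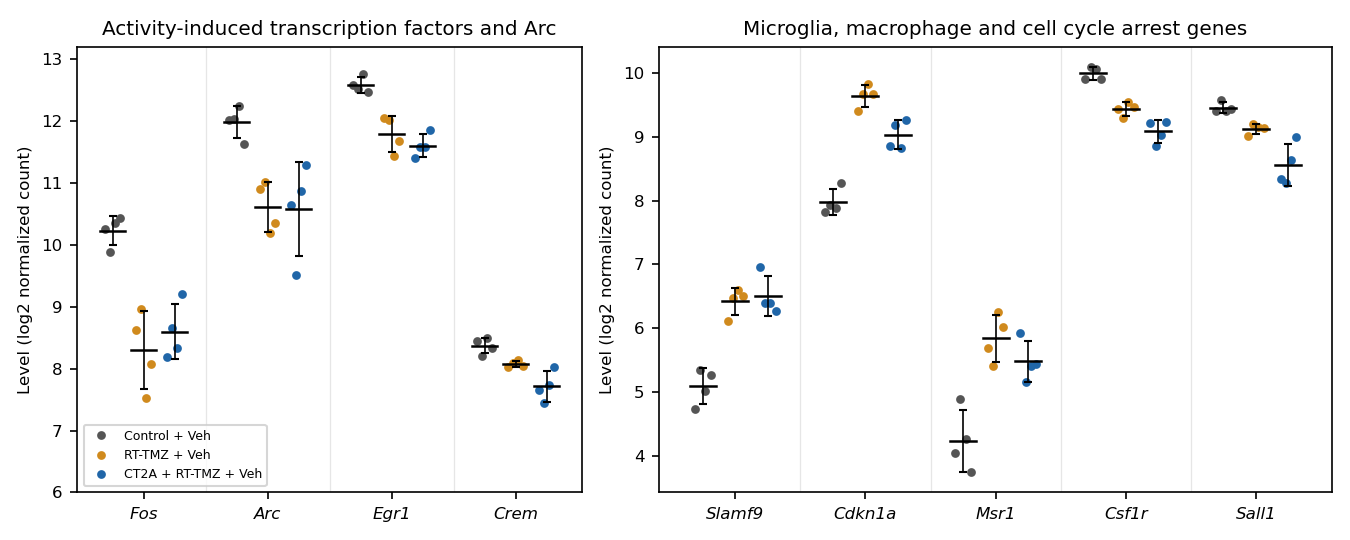
Level of 4 activity-dependent genes (left) and 5 microglia, macrophage and cell cycle arrest genes (right) in each mouse of the 3 groups (log2 normalized counts, vertical axis), where points are mice, bars the mean and whiskers the SD of n = 4. Fos and Arc in both treated groups lay below all controls, while Cdkn1a was at 8.83 to 9.27 with the tumor and 9.41 to 9.83 without it.

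Ribosomal protein genes and their companions rose together with the deposited scaling. Of 12 genes in the list (9 ribosomal proteins, the cytochrome c oxidase subunit Cox5b, the iron-sulfur chaperone Bola2 and the parathymosin gene Ptms), 11 were higher and none was lower, against 7.79% of all genes higher, and the median was 0.44. The median was 0.66 with 11 higher after centring on medians and 0.32 with 5 higher after quantile normalization, but it turned to -0.18 with 4 genes lower without the scaling factor. Rps21 was at 14.94, 14.89, 14.93 and 14.86 in Control + Veh and at 15.56, 15.36, 15.57 and 15.16 in CT2A + RT-TMZ + Veh, a difference of 0.51 ± 0.09 (adjusted p = 0.0115). The control mice lay within 0.1 of each other, and tumor-bearing replicate 4 was the lowest of its group. Rpl36al (0.45 ± 0.07, adjusted p = 0.00887), Cox5b (0.49 ± 0.08, adjusted p = 0.0109), Bola2 (0.52 ± 0.09, adjusted p = 0.0112) and Rps10 (0.50 ± 0.09, adjusted p = 0.0115) rose by similar amounts. Rps3, a small-subunit protein that also acts in DNA repair, was the member that did not pass (0.10 ± 0.09, adjusted p = 0.494).

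Chemoradiation alone moved this list little, with 1 of 12 genes higher (12.2% of all genes) and a median of 0.08. With the deposited scaling, CT2A + RT-TMZ + Veh was above RT-TMZ + Veh in 10 of the 12 (1.85% of all genes). The calls of that direct comparison depended on the scaling. The 14 genes higher over the whole panel became 2 after centring on medians, with 1 of the 14 kept. Centring nevertheless moved the median difference of all genes from -0.14 to 0.13. By limma, it took the genes higher at an unadjusted p under 0.05 from 50 to 141. Without the scaling factor 0 genes were higher (by limma 607 lower, and none higher at an unadjusted p under 0.05). The mean level of the list was 12.72 to 12.76 in Control + Veh and 12.94 to 13.25 in CT2A + RT-TMZ + Veh, and it was 12.66 to 12.75 in the tumor-bearing mice given vesicles. Leaving out 1 mouse at a time left 8 to 11 genes higher than in Control + Veh. In the direct comparison, as given above, no gene of the panel passed without RT-TMZ + Veh replicate 2, 3 or 4 or CT2A + RT-TMZ + Veh replicate 3. Whether the probes also count ribosomal pseudogene transcripts is not given in the sources used here.

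Ribosomal protein messages typically carry a pyrimidine tract at their start, the feature by which growth signaling controls their translation. The start sites of the members whose run reached 8 bases are shown for that reason. An unbroken run of at least 8 C or T bases that covered the start was present in 3 of the 11 list genes with a RefSeq window and in 3.86% of all 32851 windows. The 11 include Cox5b, Bola2 and Ptms, which are not ribosomal proteins. Of the ribosomal genes, Rpl36al, Rpl9 and Rps3 had no C or T at the annotated start. The longest runs of Rps2 and Rps21 were 4 and 7 bases. A list gene with several windows was counted by its longest run, while the share over all windows counts each window. The sequences below run from 15 bases before to 15 bases after the start, with the run in capitals. Rps10 lies at chr17:27635230-27635259 on the minus strand, Rpl28 at chr7:4792950-4792979 and Rps9 at chr7:3704026-3704055, both on the plus strand (GRCm38.p6).
Rps10: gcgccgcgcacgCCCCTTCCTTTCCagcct
Rpl28: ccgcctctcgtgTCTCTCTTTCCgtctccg
Rps9: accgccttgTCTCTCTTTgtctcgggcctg
Differences from Control + Veh were 0.50 for Rps10, 0.39 for Rpl28 and 0.37 for Rps9, all negative without the scaling factor, and the run is a description of the sequence, not a measured site.

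**Figure D5:**
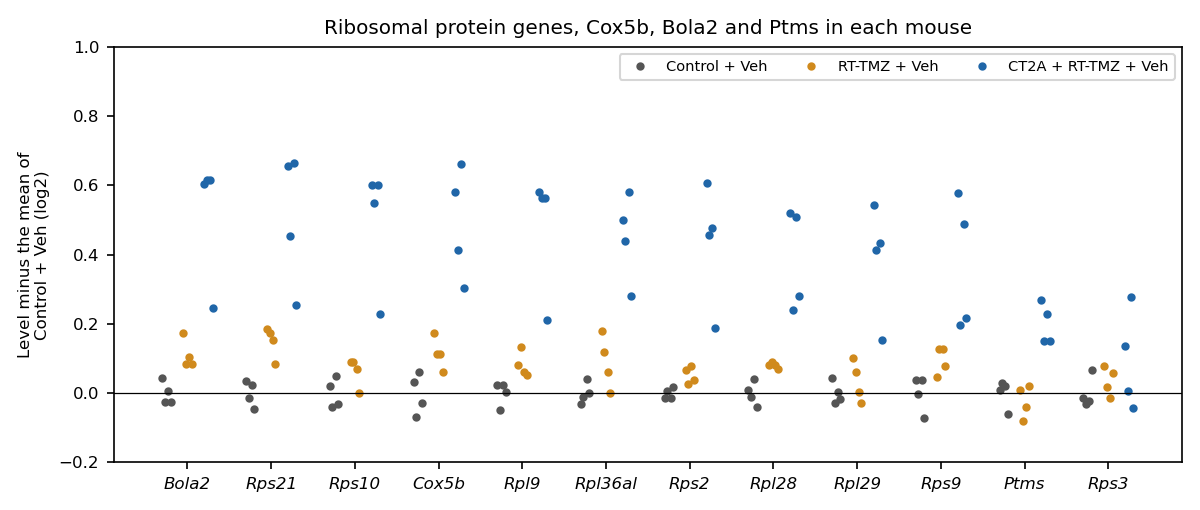
Level of the 12 genes of the ribosomal list in each mouse, as the difference from the mean of Control + Veh (log2, vertical axis), with the deposited scaling, where points are mice of the 3 groups. Tumor-bearing mice lay above all controls in 11 of 12 genes, although all 12 differences were negative, with a median of -0.18, without the scaling factor.

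Microglial genes moved both ways. Of 15 homeostatic microglia genes, 5 were lower and 1 was higher, while the list for activated or disease-associated microglia (23 genes) held 6 higher and 1 lower, where 7.79% of all genes were higher and 13.3% lower. The homeostatic median was -0.18 beside -0.06 for all genes. It was 0.04 with 3 higher and 5 lower after centring on medians. Without the scaling factor it was -0.79, with 13 lower and 0 higher (540 and 3 of all 757 genes). Chemoradiation without tumor gave 2 higher and 4 lower of the same 15 (12.2% and 5.68% of all genes), with a median of -0.04. Csf1r, the receptor that microglia need to survive, was at 9.91, 10.09, 10.06 and 9.91 in Control + Veh and at 9.22, 8.86, 9.02 and 9.23 in CT2A + RT-TMZ + Veh (difference -0.91 ± 0.10, adjusted p = 0.00355). All controls lay above all tumor-bearing mice. Sall1, the transcription factor that holds microglial identity, fell by 0.90 on the log2 scale (SE 0.16, adjusted p = 0.0111), and the organic anion transporter Slco2b1 by 0.67 (SE 0.10, adjusted p = 0.0058). The microglial surface genes P2ry12 (-0.18), Tmem119 (-0.14) and Cx3cr1 (-0.14) did not pass, with adjusted p of 0.274, 0.355 and 0.3, and their differences turned positive after centring on medians. Fcrls, an Fc receptor-like gene of mouse microglia, rose by 0.66 on the log2 scale (SE 0.09, adjusted p = 0.00506) from 9.32 to 9.45 in controls to 9.85 to 10.23. This rise no longer passed without the scaling factor. In RT-TMZ + Veh the differences from control were -0.56 for Csf1r and 0.63 for Fcrls. The lower levels of Csf1r, Sall1 and Slco2b1 stood beside levels of P2ry12, Tmem119 and Cx3cr1 that overlapped the controls.

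Slamf9, a SLAM family receptor of phagocytes, rose from 4.73, 5.34, 5.02 and 5.27 in Control + Veh to 6.96, 6.39, 6.4 and 6.27 in CT2A + RT-TMZ + Veh, a 2.67-fold higher level (adjusted p = 0.0053). The signaling adaptors Tyrobp (0.53 ± 0.14, adjusted p = 0.0325) and Fcer1g (0.55 ± 0.14, adjusted p = 0.0303), through which microglial receptors act, rose with separate groups, as did the lipid carrier Apoe (0.26 ± 0.07, adjusted p = 0.0409). The lipid receptor Trem2, a partner of Tyrobp, was at 8.42 to 8.65 in controls and 8.62 to 9.23 in tumor-bearing mice, which overlap (adjusted p = 0.0798). These rises depended on the scaling in part: the median of the 23 genes was 0.43 as deposited, 0.64 with 15 genes higher after centring on medians, and -0.19 with 1 higher and 6 lower without the scaling factor, where Slamf9 kept its rise. Leaving out 1 mouse left 1 to 11 of them higher, with 1 without Control + Veh replicate 1, 2 or 3 or CT2A + RT-TMZ + Veh replicate 3, 2 without Control + Veh replicate 4 or CT2A + RT-TMZ + Veh replicate 1, and 11 without CT2A + RT-TMZ + Veh replicate 2. In RT-TMZ + Veh, 14 of the 23 were higher with a median of 0.46, against 12.2% of all genes higher. CT2A + RT-TMZ + Veh was below RT-TMZ + Veh in 5 and above it in none (8.72% and 1.85% of all genes).

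Of 8 complement genes measured, 3 were higher and none was lower, against 7.79% of all genes higher, with a median of 0.44 that became -0.18 without the scaling factor, where no member passed. C1qa, which encodes a chain of the initiating complex of the classical pathway, was at 10.49, 10.63, 10.54 and 10.45 in controls and at 11.43, 10.65, 11.05 and 10.97 in tumor-bearing mice (0.50 ± 0.15, adjusted p = 0.0427). Replicate 2 was only just above the highest control. C1qc rose by 0.45 on the log2 scale (adjusted p = 0.0401), whereas the C1qb groups overlapped (0.42, adjusted p = 0.0659). C3ar1, the receptor for the C3a fragment, rose from 6.44 to 6.71 in controls to 7.04 to 7.70 (0.79 ± 0.17, adjusted p = 0.0165), and its difference in RT-TMZ + Veh was 1.31. In RT-TMZ + Veh 5 of the 8 were higher (12.2% of all genes), with a median of 0.49. By limma no complement gene passed without Control + Veh replicate 1. With all mice 5 of 8 had an unadjusted p under 0.05, against 275 of all 757 genes. Of the 8, 1 passed without Control + Veh replicate 2, 3 or 4 or CT2A + RT-TMZ + Veh replicate 1 or 3. Without CT2A + RT-TMZ + Veh replicate 2, 5 passed.

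Phagocyte genes that mark infiltrating or tissue macrophages were mostly near the detection floor. Of 13 such genes, 7 exceeded 20 normalized counts (4.32 on the log2 scale) in either group. Of the 13, 1 was higher and 1 was lower (7.79% and 13.3% of all genes). The scavenger receptor Msr1 was at 4.04, 4.88, 4.26 and 3.74 in Control + Veh and at 5.92, 5.15, 5.40 and 5.44 in CT2A + RT-TMZ + Veh (1.25 ± 0.27, adjusted p = 0.0165). Cd163, the hemoglobin scavenger receptor of border macrophages, fell from 5.57, 5.81, 5.64 and 6.4 to 5.05, 4.59, 4.79 and 4.83 (difference -1.04 ± 0.21, adjusted p = 0.014). Msr1 and Cd163 thus went in opposite directions, and their differences in RT-TMZ + Veh were 1.61 and -0.96. The receptors that recognize dying cells through bridging ligands, Mertk (-0.67 ± 0.15, adjusted p = 0.0189) and Axl (-0.46 ± 0.10, adjusted p = 0.0201), and the engulfment factor Dock1 (-0.83 ± 0.19, adjusted p = 0.0201) fell, and all of them were below RT-TMZ + Veh as well (adjusted p of 0.0414, 0.0391 and 0.0498). Axl no longer passed after centring on medians (adjusted p = 0.0884).

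Among matrix and adhesion genes, 2 of 15 were higher and 3 were lower (7.79% and 13.3% of all genes), with a median of -0.45. Mmp12, the macrophage elastase, was at 3.68, 4.11, 3.32 and 3.66 in controls, where replicates 3 and 4 were at the lowest value of their samples, and at 5.55, 4.31, 5.15 and 5.03 in tumor-bearing mice (1.32 ± 0.28, adjusted p = 0.0162). The floor therefore set part of the control level. Fbln5, an elastic fiber protein of vessel walls, fell from 6.61, 7.13, 7.12 and 7.43 to 5.86, 5.75, 6.04 and 6.32 (difference -1.08 ± 0.20, adjusted p = 0.0118). The laminin receptor subunit Itga6 (-0.67 ± 0.13, adjusted p = 0.014) and the TGF-beta receptor Tgfbr1 (-0.74 ± 0.20, adjusted p = 0.0325) fell with separate groups. The Mmp12 difference in RT-TMZ + Veh was 1.77. In RT-TMZ + Veh the differences of Fbln5, Itga6 and Tgfbr1 were 0.29, 0.02 and -0.01.

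Cdkn1a, the p21 cell cycle inhibitor and a direct p53 target, was at 7.82, 7.93, 7.88 and 8.28 in Control + Veh and at 8.86, 9.18, 8.83 and 9.27 in CT2A + RT-TMZ + Veh. All tumor-bearing mice were above all controls, by 1.06 ± 0.15 on the log2 scale (2.08-fold, adjusted p = 0.00506). The level was higher still in RT-TMZ + Veh, at 9.41, 9.67, 9.83 and 9.67, and CT2A + RT-TMZ + Veh lay 0.61 below it (difference -0.61, adjusted p = 0.0391). In the p53 list, 2 of 14 genes were higher, Cdkn1a among them, and 1 was lower (7.79% and 13.3% of all genes). The list median was 0.00, beside -0.06 for all genes. Bid, a pro-apoptotic BCL2 family member, was the other rise (0.35 ± 0.10, adjusted p = 0.043), the p53-binding protein gene Trp53bp2 fell (-0.61 ± 0.17, adjusted p = 0.0362), and Mdm2, the p53 ubiquitin ligase, did not pass (-0.30 ± 0.09, adjusted p = 0.0522).

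Of 39 DNA damage and repair genes measured, 2 were higher and 5 were lower, and the median equaled the -0.06 of all genes, of which 7.79% were higher and 13.3% lower. Mgmt, the enzyme that removes the alkyl group temozolomide leaves on guanine, was at 5.75, 5.54, 5.77 and 5.47 in controls and at 6.57, 6.61, 6.10 and 6.55 in tumor-bearing mice (0.82 ± 0.16, 1.77-fold, adjusted p = 0.0126), and its difference in RT-TMZ + Veh was 0.79. The base excision endonuclease Apex1 rose by 0.44 on the log2 scale (adjusted p = 0.014), a rise that became -0.18 without the scaling factor. The checkpoint clamp gene Hus1 (-0.49 ± 0.11, adjusted p = 0.0201) and the damage mediator Mdc1 (-0.49 ± 0.12, adjusted p = 0.0248) were among the 5 falls, none of which passed after centring on medians. Of 26 proliferation and replication genes, 1 was higher and 2 were lower: the sliding clamp Pcna differed by 0.20 (adjusted p = 0.049), and the helicase Hells (-0.85 ± 0.17, adjusted p = 0.014) and the checkpoint kinase Chek1 (-0.46 ± 0.14, adjusted p = 0.0427) fell. No gene of the lists marks CT2A cells, so the tumor content of the samples was not measured.

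Of 44 death receptor and BCL2 family genes, 3 were higher and 3 lower, where 7.79% of all genes were higher and 13.3% lower. Bcl2a1a, an anti-apoptotic member induced in activated leukocytes, rose from 6.60, 6.56, 6.16 and 6.39 to 7.90, 7.01, 7.55 and 7.25 (1.0 ± 0.20, adjusted p = 0.014). Its near-identical paralogs may share the probe, so this value is uncertain. Tnfsf10, which encodes the death ligand TRAIL, fell from 5.70, 5.92, 5.10 and 5.53 to 4.37, 4.21, 3.67 and 4.97 (difference -1.26 ± 0.29, adjusted p = 0.0201), with replicate 3 at the lowest value of its sample and the tumor-bearing mean under 20 normalized counts. Its value in RT-TMZ + Veh was 0.18 above the controls (adjusted p = 0.648). Casp2 (-0.50 ± 0.10, adjusted p = 0.015) fell and Bad (0.37 ± 0.08, adjusted p = 0.0162) rose.

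Of 15 astrocyte identity genes, 6 were lower and 1 was higher with the deposited scaling, against 13.3% and 7.79% of all genes, with a median of -0.41 beside -0.06. The glutamate transporter Slc1a3 was at 13.78, 13.84, 13.85 and 13.89 in controls and at 13.31, 13.27, 13.37 and 13.58 in tumor-bearing mice (difference -0.46 ± 0.08, adjusted p = 0.00887). The gap junction gene Gja1 (-0.45 ± 0.09, adjusted p = 0.014), the astrocyte transcription factor Sox9 (-0.49 ± 0.11, adjusted p = 0.0192) and the glutamate receptor Grm3 (-0.53 ± 0.14, adjusted p = 0.0325) were lower with separate groups. After centring on medians, Sox9 alone of these 4 passed (adjusted p = 0.0458) and the median of the list was -0.20. Leaving out 1 mouse left 1 to 8 genes lower, with 1 without Control + Veh replicate 1, 2 without its replicate 2 or 3 or CT2A + RT-TMZ + Veh replicate 3, and 3 without Control + Veh replicate 4.

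Of 30 genes that reactive astrocytes take up, 3 were higher and 1 was lower (7.79% and 13.3% of all genes). The list median was -0.05, near the -0.06 of all genes. The cytokine-signaling inhibitor Socs3 rose by 0.84 on the log2 scale (SE 0.24, adjusted p = 0.0401), although its groups overlapped (4.04 to 4.79 and 4.64 to 5.51). Lrg1 (0.51, adjusted p = 0.0398) and the protease inhibitor Timp1 (0.73, adjusted p = 0.0447) passed with group means under 20 normalized counts, and 3 of the 4 Timp1 controls were at the floor. In RT-TMZ + Veh 11 of the 30 were higher with a median of 0.54, against 12.2% of all genes higher. CT2A + RT-TMZ + Veh was below RT-TMZ + Veh in 6 and above it in none (8.72% and 1.85% of all genes).

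Myelin and oligodendrocyte genes did not pass in either direction. The median of 26 genes was -0.54, and by limma no gene had an adjusted p under 0.05, with 4 at an unadjusted p under 0.05 and none by the methods' t-test. Other settings called some of them lower, given here beside the count over all genes tested. With all groups in 1 fit 6 were lower (173 of 757), and after centring on medians 1 (40 of 757). With log2(normalized count + 20) 1 was lower (110 of 757), and among genes above background alone 1 (111 of 681). Without the scaling factor 20 were lower (540 of 757). Without CT2A + RT-TMZ + Veh replicate 2 the count was 2 (134 of 757), with a median of -0.15, and without its replicate 4 it was 3 (139 of 757). Replicate 2 of CT2A + RT-TMZ + Veh was the lowest of its group in 23 of the 26 genes, with a mean level of 8.10 against 9.11 to 9.93 in controls and 9.15 to 9.74 in the other tumor-bearing mice. Mag, a receptor of the inner myelin membrane, was at 10.49, 10.83, 10.58 and 9.57 in controls and at 9.58, 8.36, 10.38 and 10.48 in tumor-bearing mice (difference -0.67 ± 0.47, adjusted p = 0.348), and Mog, on the outer myelin surface, ranged from 8.45 to 10.86 there (adjusted p = 0.391). The neuregulin receptor Erbb3 (-0.99 ± 0.31, adjusted p = 0.0513) and the deiminase Padi2 (-0.79 ± 0.30, adjusted p = 0.0917) had separate groups without passing. In the same replicate 2, Mef2c, a transcription factor of cortical neurons, was at 13.93, against 11.67 to 11.91 in the other tumor-bearing mice and 12.17 to 12.91 in controls. Ttr, the transport protein of choroid plexus, ranged from 5.31 to 13.94 in tumor-bearing mice and from 6.72 to 10.27 in controls (adjusted p = 0.941). The part of dissection in these values was not tested.

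Of 43 neuronal and synaptic genes, 2 were higher and 3 were lower, with a median of -0.06, where 7.79% of all genes were higher and 13.3% lower. The vesicular glutamate transporter Slc17a7 rose by 0.36 on the log2 scale (SE 0.08, adjusted p = 0.0166), from 13.86 to 14.03 in controls to 14.14 to 14.47. The nociceptin precursor Pnoc rose by 0.57 (SE 0.14, adjusted p = 0.0228), and both rises turned negative without the scaling factor (-0.25 and -0.05). Eef2k, the elongation factor kinase (-0.42 ± 0.10, adjusted p = 0.0201), and the presynaptic glutamate receptor Grm2 (-0.33 ± 0.08, adjusted p = 0.0274) fell. Syp, the synaptic vesicle protein synaptophysin, was at 14.26 to 14.37 in controls and 14.46 to 14.91 in tumor-bearing mice without passing (0.29 ± 0.10, adjusted p = 0.0592), and Dlg4, which encodes PSD-95, differed by 0.02 ± 0.06 (adjusted p = 0.85).

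The falls of chromatin regulators depended on the scaling. Of 54 genes, 20 were lower and 3 were higher with a median of -0.25. Of all genes, 13.3% were lower and 7.79% higher, with a median of -0.06. Centring on medians left 0 of the 54 lower and 4 higher with a median of -0.03. Over all 757 genes it gave 40 lower and 107 higher with a median of 0.16. Quantile normalization left 6 of the 54 lower, against 59 of all 757 genes. The histone methyltransferases Setd2 (-0.59 ± 0.11, adjusted p = 0.0115) and Setd1b (-0.77 ± 0.17, adjusted p = 0.0168), the demethylase Kdm3a (-0.48 ± 0.09, adjusted p = 0.0115), the Polycomb gene Bmi1 (-0.34 ± 0.07, adjusted p = 0.0165) and the acetyltransferase Crebbp (-0.48 ± 0.11, adjusted p = 0.0201) were below all controls. The deacetylase Hdac2 rose by 0.28 on the log2 scale (adjusted p = 0.0176), and the demethylase Kdm4d by 0.86 (adjusted p = 0.0414) from a low level. With any 1 mouse left out, 2 to 27 genes were lower, with 2 without Control + Veh replicate 1 or 2, 3 without CT2A + RT-TMZ + Veh replicate 3, and 6 to 9 without Control + Veh replicate 3 or 4 or CT2A + RT-TMZ + Veh replicate 1.

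Lymphocyte genes were mostly at the floor. Of 26 T and NK cell genes 9 exceeded 20 normalized counts, and by limma none of 7 B cell genes passed (1 at an unadjusted p under 0.05). The activating NK receptor Klrk1 was at 3.49, 3.79, 3.39 and 3.66 in controls and at 4.92, 4.21, 4.48 and 4.25 in tumor-bearing mice (0.88 ± 0.19, adjusted p = 0.0174), with 2 controls at the floor. The cytotoxic granule gene Nkg7 rose by 0.70 (adjusted p = 0.0416), and the checkpoint receptor Lag3, which neurons also express, fell by 0.58 on the log2 scale (adjusted p = 0.0462) with groups that overlapped. The SLAM receptor Ly9, outside that list, rose from 3.74 to 4.43 in controls to 4.75 to 5.79 (1.06 ± 0.26, adjusted p = 0.0234), and its difference in RT-TMZ + Veh was 1.82.

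Of 20 chemokine and cytokine genes, 2 were higher and none was lower (7.79% and 13.3% of all genes). The macrophage chemokine Ccl4 was at 3.96, 4.18, 3.52 and 4.39 in controls and at 5.63, 4.68, 4.72 and 4.76 in tumor-bearing mice (0.94 ± 0.27, adjusted p = 0.0414), and lymphotoxin Lta rose by 0.62 (adjusted p = 0.0248). Cxcl10, an interferon-induced chemokine, was at 7.54, 5.59, 4.98 and 6.09 in tumor-bearing mice against 4.52 to 5.07 in controls, and its difference of 1.25 ± 0.48 did not pass (adjusted p = 0.0904). Ccl3 was likewise spread from 4.83 to 6.94 (1.02 ± 0.39, adjusted p = 0.091). Tumor-bearing replicate 1 held the highest level of Ccl4, Cxcl10 and Ccl3. Interferon and nucleic acid sensing genes had 1 of 24 lower, the RNA sensor Ifih1 (-0.52 ± 0.14, adjusted p = 0.0317), and none higher. RT-TMZ + Veh had 6 of the same 24 higher, against 12.2% of all genes. By limma none of 12 antigen presentation genes passed, with 5 at an unadjusted p under 0.05, against 275 of all 757 genes. The invariant chain Cd74 was at 7.04 to 8.39 in controls and 8.08 to 9.11 in tumor-bearing mice (adjusted p = 0.0566).

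Outside the lists, the irritant-gated channel Trpa1 rose from 3.57, 3.88, 4.74 and 4.14 to 5.55, 5.26, 5.10 and 4.83 (1.10 ± 0.27, adjusted p = 0.0234), and the protease inhibitor Spint1 rose by 0.85 (SE 0.23, adjusted p = 0.0336). The interleukin-6 receptor chain Il6ra fell by 0.97 on the log2 scale (SE 0.25, adjusted p = 0.0302), and the kinase gene Map3k1 by 0.97 (SE 0.12, adjusted p = 0.00355) from 8.26 to 8.48 in controls to 7.28 to 7.68. Besides Tie1, Pecam1, Slc2a1 and Esam, the smallest p-values in the direct comparison with RT-TMZ + Veh belonged to Map3k1 (-0.89, adjusted p = 0.0323), the sialyltransferase St3gal6 (-0.79, adjusted p = 0.0323), the leukocyte migration factor Dock2 (-0.66, adjusted p = 0.0325) and the transglutaminase Tgm2 (-1.11, adjusted p = 0.0325). Tgm2 did not pass against Control + Veh (-0.56, adjusted p = 0.0572), and its difference in RT-TMZ + Veh was 0.54.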

How the data were processed

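RNA from fresh-frozen brain of 24 mice had been counted on a NanoString panel. The authors normalized the counts to positive controls and then to 13 reference genes, and deposited log2 normalized counts of 757 probes, which were used unchanged. Groups came from sample titles. Of the probes, 703 have 1 symbol in the platform annotation, all matched in RefSeq, and 54 are unnamed here. Each sample's scaling factor was read from the spacing of values up to 40 normalized counts, of which 99.2 to 100.0% were whole multiples (tolerance 0.15), and recorded totals were estimated from it. Each comparison was fitted by itself in limma 3.58.1 (R 4.3.3) with moderated variances following mean expression, with Benjamini-Hochberg adjustment across the 757 probes (threshold 0.05). The lowest value of a sample was shared by 24 to 60 of its genes in the 8 samples compared, so levels there are bounds. Samples are different mice, and whether they were processed in batches is not given in the sources used here.

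The comparison and the 25 gene lists were chosen with earlier results of these data known. Genes were named by rule: among genes that passed, exceeded 20 normalized counts and had groups apart, the 12 largest rises and 12 largest falls, up to 4 members with the smallest p per list, the 8 smallest p of the direct comparison, and Syp, Dlg4, Cdkn1a, Ttr and Mef2c. Lsr, Cldn5, Tmem100, Bdnf, Jun, Ptms, Rps21, Rps3, Rpl28, Rps9, P2ry12, Tmem119, Cx3cr1, Apoe, Trem2, Mag, Mog, Crebbp and Hdac2 were named outside it, after their values were seen. Alternatives were median centring, quantile normalization, removal of the scaling factor, log2(normalized count + 20), genes above 20 normalized counts alone, all 7 groups in 1 fit, no mean trend, the methods' t-test, a replicate block, and leaving out each mouse. The fit was tested on simulated data. Promoter windows were from RefSeq (GRCm38.p6). Figures used matplotlib 3.10.9 in Python 3.11.15.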

Additional observations from a re-analysis of the deposited data

Results flagged for a closer look

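In 12 of 220 tests of a group of 4 mice, 1 mouse stood far from the other 3, and chance gives about 1 in 20. Replicate 4 of CT2A + RT-TMZ + Veh was the low mouse for Rps10 (11.7 against 12.02 to 12.07), Rpl9 (13.36 against 13.71 to 13.73) and Bola2 (11.89 against 12.25 to 12.26), all members of the ribosomal list. Replicate 1 of that group stood apart for Ccl4 (5.63 against 4.68 to 4.76) and Grm3 (10.28 against 10.87 to 10.97), replicate 2 for Mef2c (13.93 against 11.67 to 11.91) and replicate 3 for Mgmt (6.1 against 6.55 to 6.61). In Control + Veh, replicate 2 was high for C3ar1 (6.71 against 6.44 to 6.47) and for the median of all genes (8.37 against 8.26 to 8.27). Control + Veh replicate 3 was low for Mdc1 (8.14 against 8.26 to 8.28) and Ccl3 (4.64 against 4.91 to 4.96), and replicate 4 for Tmem119 (9.38 against 9.59 to 9.62).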

How the results depend on the processing

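Against 160 changed genes (59 higher, 101 lower) between CT2A + RT-TMZ + Veh and Control + Veh, removing the scaling factor gave 543 (3 higher, 540 lower), 1 fit of all groups 279 (106 higher, 173 lower) and the methods' t-test 8 (3 higher, 5 lower). Median centring gave 107 higher and 40 lower, and quantile normalization 59 lower. Leaving out 1 mouse gave 50 to 227 changed, 22 to 93 higher and 28 to 139 lower genes. The shift of the median of all genes was -0.83 without the scaling factor (exact permutation p = 0.0286) and -0.29 to -0.14 with 1 mouse left out. Against RT-TMZ + Veh, 80 changed genes became 19 after median centring, 607 without the scaling factor, 238 in 1 fit of all groups, 24 without the mean trend, 0 by the methods' t-test (193 at an unadjusted p under 0.05) and 0 to 167 with 1 mouse left out. For RT-TMZ + Veh against Control + Veh, 135 became 76 without the scaling factor, 88 in 1 fit of all groups, 60 by the methods' t-test and 79 to 173 with 1 mouse left out. Same-numbered mice of the tumor and control groups correlated at -0.10, -0.54, 0.29 and -0.35 in their deviations from group means. Differently numbered pairs correlated at -0.30 to 0.54. These values cannot decide whether same-numbered mice shared a batch. With a replicate block, 27 genes changed (10 higher, 17 lower), 0 against RT-TMZ + Veh (214 at an unadjusted p under 0.05) and 68 for chemoradiation alone.

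Differences that changed sign without the scaling factor were Rps21 -0.11, Rps10 -0.12, Rpl36al -0.17, Rpl9 -0.14, Rps3 -0.52, Rpl28 -0.23, Rps9 -0.25, Cox5b -0.13, Bola2 -0.098, Tyrobp -0.085, Fcer1g -0.073, Apoe -0.36, Trem2 -0.22, C1qa -0.12, C1qb -0.20, C1qc -0.17, Bid -0.27, Apex1 -0.18, Lrg1 -0.11, Slc17a7 -0.25, Pnoc -0.045, Syp -0.33, Dlg4 -0.60, Hdac2 -0.34, Lta -0.0003, Bad -0.25, Pcna -0.42 and Ttr -0.43. Removing the factor lowers every difference by 0.62 by construction. Of the 59 genes higher as deposited, 3 still passed as higher there. Fcrls, Msr1, Mmp12, C3ar1 and Mgmt kept their sign but no longer passed as higher. With median centring Cldn5 became 0.13, P2ry12 0.033, Tmem119 0.073, Cx3cr1 0.075 and Mef2c 0.060, and with quantile normalization Cldn5 became 0.078, Tmem119 0.097, Cx3cr1 0.084 and Dlg4 -0.14. With 1 mouse left out, Dlg4 ranged from -0.0092 to 0.043 (lowest without Control + Veh replicate 4), Mef2c from -0.69 to 0.068 (0.0083 without CT2A + RT-TMZ + Veh replicate 4) and Ttr from -1.62 to 1.25 (-0.33 and -0.23 without Control + Veh replicate 3 and 4). Causes other than this construction were not tested.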
